A study of Mus musculus with 12 samples.

Results

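Genes for the protein subunits of oxidative phosphorylation were followed in perigonadal fat of mice with more or less of the glucose transporter Glut4 in fat. Members were taken by gene symbol from the array annotation: symbols starting with Nduf (complex I), Uqcr (complex III), Cox4 to Cox8 (complex IV) or Atp5 (complex V), with Sdha, Sdhb, Sdhc and Sdhd (complex II) and Cyc1 (complex III). Cox8b and Cox7a1, which mark brown fat and muscle, were left out of the members. The rule found 70 genes of 8251 with a probe set of a single symbol, namely 31 of complex I, 4 of complex II, 8 of complex III, 13 of complex IV and 14 of complex V. Each gene was read from its brightest probe set, and 61 of the 70 were bright enough to be tested, among 5707 tested genes. The symbol rule also brought in Ndufaf1 and Ndufaf4, which are assembly factors of complex I rather than subunits.

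RNA was measured on 12 Affymetrix arrays, 3 in each of 4 groups, from mice that the labels give as female, 6 months old and fed ad libitum. The overexpressor carried a Glut4 transgene driven by the aP2 promoter on the FVB strain, and its controls were FVB littermates. The knockout lacked Glut4 in adipose tissue (adipose-Glut4-/-), and its controls carried aP2-Cre; both had a mix of C57B6, FVB and SV129 as their strain. The aP2 (Fabp4) promoter that drives both the transgene and Cre is known to be active in some cells other than adipocytes, such as macrophages, which limits both lines as models of adipocytes alone. Nothing in the labels mentions pooling, so each array was taken as 1 mouse.

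Slc2a4, the gene of Glut4, differed from control by 0.22 on the log2 scale in the overexpressor (limma, adjusted p = 0.930) and by -0.43 in the knockout (adjusted p = 1.0); its knockout arrays read 363 to 378 against 416 to 614 in the controls, and its overexpressor arrays overlapped their controls, so this probe set does not check the overexpressor labels. The fat marker Adipoq was bright on every array, from 5196 to 6986. Median intensity ran from 185.8 on knockout control 3 and 188.1 on overexpressor 1, the dimmest array of each line, to 219.4. The smallest deposited value was 21.9 on each array of the overexpressor line and 22.27 on each array of the knockout line, so each line appears to have been processed on its own, and levels were tested only within a line. Array counts limit the precision, and since tissue was measured whole, fewer cells of a type and less RNA per cell cannot be told apart.

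Oxidative phosphorylation takes place in the inner mitochondrial membrane. Complexes I and II pass electrons from NADH and succinate to coenzyme Q, complex III hands them to cytochrome c, complex IV gives them to oxygen, and complexes I, III and IV pump protons whose return through complex V makes ATP. Apart from complex II, the complexes also hold subunits encoded in mitochondrial DNA, and the nuclear genes described here are known to be driven together by the factors NRF1 and GABPA and the coactivator PGC-1 (Ppargc1a). White fat burns little fuel compared with brown fat, whose cells are packed with mitochondria and uncouple respiration from ATP synthesis through Ucp1.

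The promoters of some of the subunit genes are printed to show what the known motifs look like in them; each motif was found in a minority of them. RefSeq promoters (GRCm38.p6, 250 bases before to 50 bases after the gene's start) were matched for 56 of the 70 genes and searched on both strands. A gene was counted if any of its promoters held the motif. The NRF1 palindrome, which is the run in capitals in the Atp5k window printed here, was found in 5 of 56 (8.9%). It was found in 1.07% of the 27025 genes with a promoter and in 1.93% of the 6572 of them on the array. With a base of its central pair free, a looser motif that contains the preceding one, it was found in 12 (21.4%) against 5.19% and 9.97%. The motif CCGGAAG of ETS factors such as GABPA was found in 16 (28.6%) against 9.93% and 17.1%, and that of YY1, the leftmost run in capitals in the Atp5j window, in 3 (5.4%) against 0.995% and 1.98%. The assembly factors Ndufaf4 (both NRF1 motifs) and Ndufaf1 (ETS motif) are among the genes counted. All of these are letter matches and no evidence of binding. The windows below hold the 100 bases just before the start of 4 genes, 5′ to 3′ on the gene's strand (minus in each case), chosen because they show the different motifs, which stand in capitals; a match on the other strand reads as its reverse complement. They lie at chr13:74350241-74350340 (Sdha), chr9:50603850-50603949 (Sdhd), chr16:84834977-84835076 (Atp5j) and chr5:108434400-108434499 (Atp5k).
Sdha, looser NRF1 motif 3 times on the other strand: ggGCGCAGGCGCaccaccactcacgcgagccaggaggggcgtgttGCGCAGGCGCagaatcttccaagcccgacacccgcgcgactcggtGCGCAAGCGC
Sdhd, looser NRF1 motif and ETS motif, both on the other strand: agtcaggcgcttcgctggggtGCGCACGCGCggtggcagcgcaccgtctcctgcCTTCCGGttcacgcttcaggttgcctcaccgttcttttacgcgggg
Atp5j, YY1 motif and ETS motif: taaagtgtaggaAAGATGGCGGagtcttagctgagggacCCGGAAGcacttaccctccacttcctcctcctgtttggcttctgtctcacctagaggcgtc
Atp5k, NRF1 palindrome: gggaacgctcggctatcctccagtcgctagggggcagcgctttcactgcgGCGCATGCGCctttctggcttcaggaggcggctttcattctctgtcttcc

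The first question was whether subunit RNA differed from control when adipose Glut4 was raised or removed. Subunit genes were on the whole slightly below control in the overexpressor and slightly above control in the knockout, but no gene passed the test in either line. In the overexpressor 53 of 61 (86.9%) were lower than in control, with a median difference of -0.12 on the log2 scale, while 71.3% of all tested genes were lower, with a median of -0.08. In the knockout 52 of 61 (85.2%) were higher, with a median of 0.14, against 64.0% and a median of 0.05 over all tested genes. Differences are of log2(intensity + 36.92), which understates those of dim genes. Single genes ran from -0.36 to 0.08 in the overexpressor and from -0.10 to 0.39 in the knockout.

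By limma with Benjamini-Hochberg adjustment over 7454 probe sets at a threshold of 0.05, 0 of 61 were called in the overexpressor, where 0.0805% of all tested probe sets were called, and 0 of 61 in the knockout, where 0.121% were. At an unadjusted p under 0.05 the count of subunit genes was 0 in both as well, against 4.76% and 3.98% of all tested probe sets. All 61 95% intervals held 0 in each comparison; they reached from -0.89 to 0.60 in the overexpressor and from -0.49 to 1.04 in the knockout, with standard errors of 0.10 to 0.30. Differences of the size seen in the medians lie within what these errors leave undetected in a single gene.

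The effect in the overexpressor minus that in the knockout was tested as a contrast of its own. It was negative for 57 of 61 subunit genes, with a median of -0.26 against -0.12 over all tested genes. None of the 61 was called (0.161% of all probe sets were), and 0 had an unadjusted p under 0.05 (4.95% of all probe sets did). Genes that were lower in the overexpressor and also higher in the knockout made up 46 of 61 (75.4%), against 46.1% of all tested genes. Both shares are close to what the counts of each line alone would give if the signs were unrelated. They therefore show no opposite change gene by gene. Across the 61 genes the size of the effect in one line was nearly unrelated to that in the other (r = 0.07, a description over genes that share the same arrays).

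**Figure D1:**
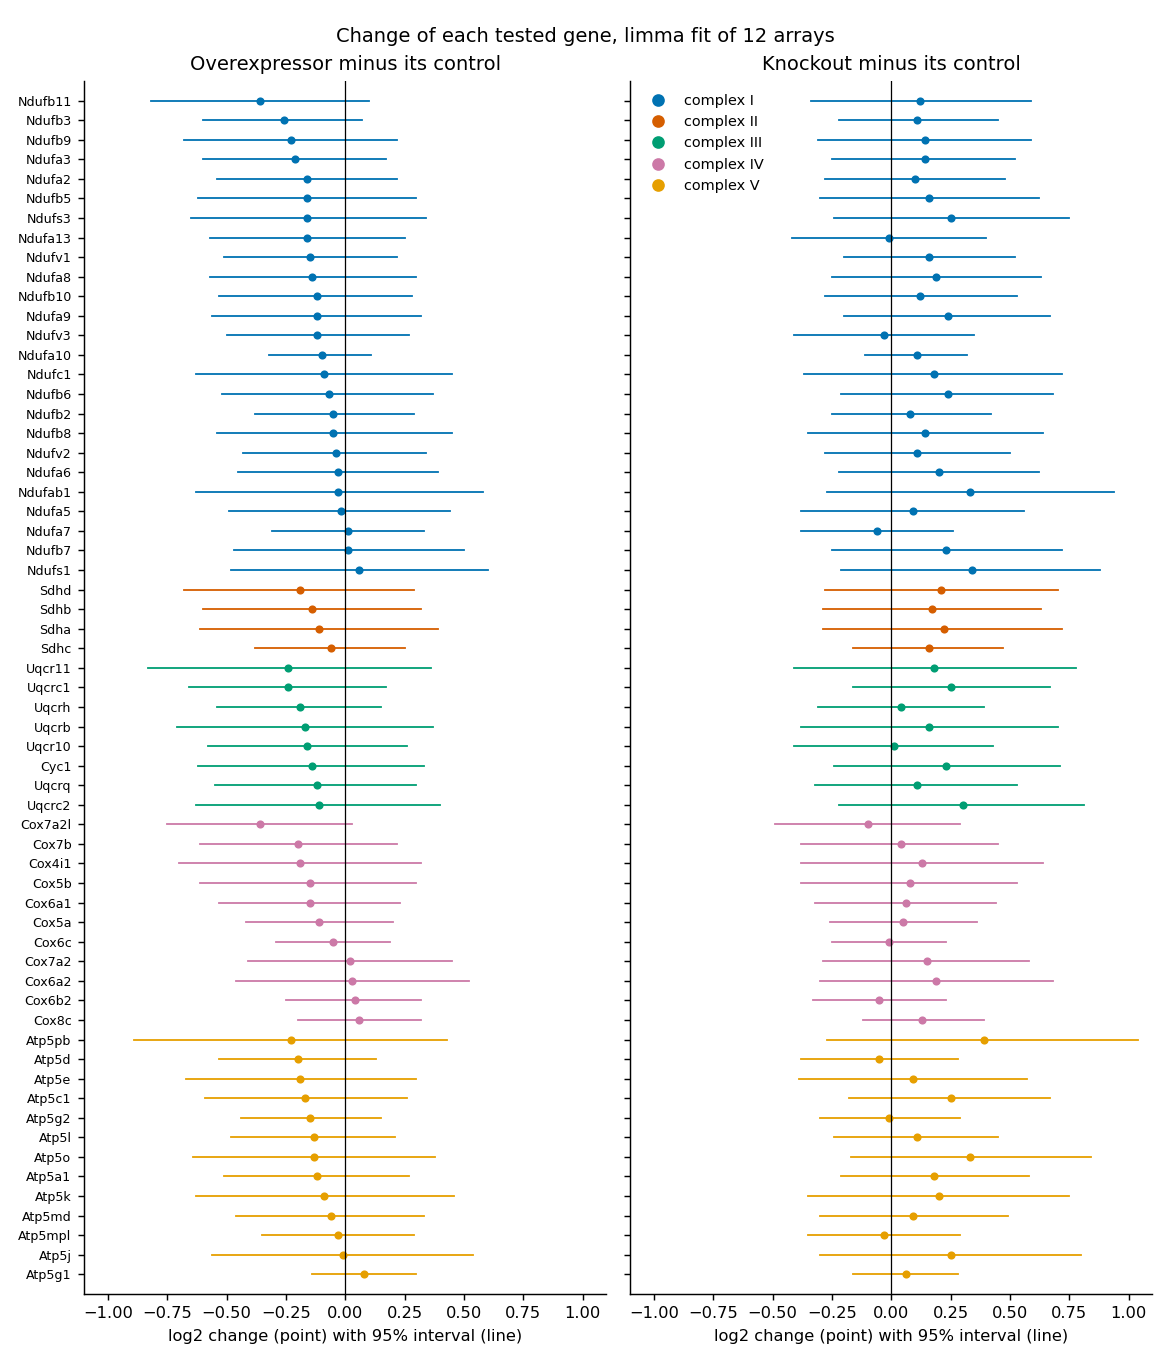
Log2 difference from control with its 95% interval for each of the 61 tested subunit genes, grouped by complex, in the overexpressor (left) and the knockout (right). Most points lie left of 0 in the overexpressor and right of 0 in the knockout, and every interval crosses 0.

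The plot of differences by gene sets the complexes side by side. Median differences in the overexpressor were -0.12 for complex I (22 of 25 lower), -0.13 for complex II (4 of 4), -0.16 for complex III (8 of 8), -0.11 for complex IV (7 of 11) and -0.13 for complex V (12 of 13). Those in the knockout were 0.14 for complex I (22 of 25 higher), 0.19 for complex II (4 of 4), 0.17 for complex III (8 of 8), 0.06 for complex IV (8 of 11) and 0.11 for complex V (10 of 13). Complex IV stood nearest to the medians of all tested genes in both lines, and no test between complexes was made. Within complex I the 4 catalytic core subunits (median -0.10 and 0.21) lay near the 21 accessory ones (-0.12 and 0.14), and within complex III the 3 core subunits gave -0.14 and 0.25 beside -0.17 and 0.11 for the 5 others.

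Groups of 3 arrays rarely separated. In the overexpressor 1 of 61 subunit genes had all its mutant arrays below all controls (6.55% of all tested genes did), and in the knockout 1 of 61 had all its mutant arrays above all controls (5.29% of all tested genes). The opposite separation was seen in 0 of 61, against 2.21% of all tested genes higher in the overexpressor and 1.98% lower in the knockout.

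Complex I, NADH dehydrogenase, is the largest of the complexes. Ndufb11, an accessory subunit of its membrane arm, was the gene that separated in the overexpressor line: it read 621, 1078 and 1004 on the overexpressor arrays and 1219, 1097 and 1095 on their controls. Overexpressor 1 lay far below the other 5, which ran from 1004 to 1219. The difference was -0.36 ± 0.21 (SE; adjusted p = 0.913), and -0.12 without overexpressor 1. In the knockout line Ndufb11 read 973, 1131 and 1353 against 1039, 1326 and 826, and the groups overlapped.

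Ndufb3, also of the membrane arm, read 1572, 2221 and 2030 in the overexpressor and 2120, 2209 and 2651 in its controls. Again the lowest value was that of overexpressor 1 and the groups overlapped, with a difference of -0.26 ± 0.15 (SE; limma, adjusted p = 0.913). Its knockout arrays read 2319, 2485 and 2566 and their controls 2064, 2694 and 2086. There, the highest and lowest values were both of controls.

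Ndufs1, the largest core subunit and the carrier of several iron-sulphur clusters, read 877, 983 and 1102 in the knockout and 669, 1039 and 657 in its controls. Only control 2 reached the level of the knockouts, and the difference was 0.34 ± 0.25 (SE; limma, adjusted p = 1.0). In the overexpressor line it read 499, 1030 and 913 against 678, 659 and 925. Overexpressor 1 was the lowest of these 6 and overexpressor 2 the highest, so a mean difference of 0.06 came from arrays on both sides of the controls.

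Ndufab1, the acyl carrier protein, showed the same layout. It read 1206, 1500 and 1663 in the knockout against 960, 1542 and 996 in its controls (0.33 ± 0.28, SE; limma, adjusted p = 1.0). Overexpressor arrays read 732, 1642 and 1511 and their controls 1114, 1121 and 1545. Here the overexpressor group spanned a wider range than the whole control group, from below its lowest array to above its highest.

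Ndufa10, another accessory subunit, was the gene that separated in the knockout line and is named for that after its values were seen. It read 197, 199 and 193 in the knockout and 191, 178 and 170 in its controls. The groups were apart by a small margin, with a difference of 0.11 ± 0.10 (SE; limma, adjusted p = 1.0). Its overexpressor arrays read 937, 1031 and 941 against 930, 1091 and 1118 in controls, and those groups overlapped.

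Complex II, succinate dehydrogenase, also works in the tricarboxylic acid cycle, and all of its subunits are nuclear. Sdha, the flavoprotein that oxidises succinate, read 247, 503 and 448 in the overexpressor and 414, 438 and 399 in its controls. Overexpressor 1 lay below and the other overexpressors above every control. Sdha in the knockout read 358, 419 and 605 against 339, 468 and 352, with knockout 3 the highest. Sdhb, the iron-sulphur subunit, read 1323, 2195 and 1924 in the overexpressor against 1723, 1815 and 2417 in controls, and 1863, 2056 and 2215 in the knockout against 1522, 2403 and 1628. Both groups of each line overlapped, and the differences were -0.14 and 0.17.

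Sdhc and Sdhd anchor complex II in the membrane. Sdhc read 1496, 2186 and 1989 in the overexpressor against 1823, 1892 and 2161, and 1881, 2018 and 2112 in the knockout against 1727, 2017 and 1656. Sdhd read 758, 1439 and 1379 against 1381, 1186 and 1400 in the overexpressor line, and 1313, 1604 and 1536 against 1113, 1656 and 1121 in the knockout line. For both genes overexpressor 1 was the lowest array of its line, and in the knockout line control 2 stood level with the knockouts or above them while controls 1 and 3 stood below. The differences for Sdhd were -0.19 ± 0.22 and 0.21 ± 0.22 (SE; limma, adjusted p = 0.930 and 1.0).

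Complex III, the cytochrome bc1 complex, had every tested subunit on the low side in the overexpressor and on the high side in the knockout by brightest probe set. For Cyc1 this depended on the probe set. Its brightest (mean 2330.1) gave -0.14 in the overexpressor and 0.23 in the knockout. A second one, nearly as bright (2225.5), gave -0.24 and -0.15. Uqcrc1, a core protein, had the smallest p-value of the 61 for the difference between the lines (adjusted p = 0.893). It read 1297, 2102 and 1968 in the overexpressor against 1977, 1901 and 2396 (-0.24 ± 0.19, SE), and 2023, 2188 and 2370 in the knockout against 1561, 2310 and 1695 (0.25 ± 0.19, SE). The overexpressor groups overlapped, and without overexpressor 1 the difference was -0.03. In the knockout line only control 2 reached into the range of the knockouts.

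Uqcrc2, the other core protein, read 484, 916 and 754 against 631, 714 and 948 in the overexpressor line, and 810, 834 and 998 against 555, 949 and 670 in the knockout line. Its differences were -0.11 ± 0.24 and 0.30 ± 0.24 (SE; limma, adjusted p = 0.966 and 1.0). Uqcrh, the hinge protein that binds cytochrome c1, read 1566, 2160 and 2070 against 2308, 2067 and 2218, and 1715, 2104 and 2224 against 1763, 2375 and 1752. Among Uqcrc1, Uqcrc2 and Uqcrh, the smallest knockout difference was that of Uqcrh, 0.04, beside -0.19 in the overexpressor.

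Complex IV, cytochrome c oxidase, was the most mixed. Its 7 ubiquitous subunits had medians of -0.15 and 0.06, and the 3 tested isoforms known from other tissues, Cox6a2 (heart and muscle), Cox6b2 and Cox8c (testis), had medians of 0.04 and 0.13. Cox7b read 1180, 2026 and 1618 in the overexpressor against 1742, 1746 and 1934, and 1026, 1135 and 1539 in the knockout against 1112, 1350 and 1109. Both lines overlapped (-0.20 ± 0.19 and 0.04 ± 0.19, SE).

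Cox7a2l, which joins complexes III and IV into supercomplexes rather than serving as a standard subunit, had the smallest overexpressor p-value of the 61 and did not follow the other genes. It read 709, 753 and 842 in the overexpressor and 1249, 983 and 794 in its controls, a difference of -0.36 ± 0.18 (SE; limma, adjusted p = 0.913, 95% interval -0.75 to 0.03). All 3 overexpressors lay below controls 1 and 2, and control 3 lay within their range. The difference was -0.31 without overexpressor 1, -0.20 without overexpressor control 1 and -0.51 without overexpressor control 3. In the knockout it read 768, 857 and 1187 against 979, 1072 and 922, so that the lowest and the highest array were both knockouts (-0.10 ± 0.18, SE).

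The tissue isoforms followed the array pattern of the others less closely. Cox6b2 read 669, 779 and 809 in the overexpressor against 893, 618 and 703, with overexpressor 1 above control 2, and 241, 216 and 224 in the knockout against 234, 254 and 223. Cox8c read 385, 380 and 474 in the overexpressor against 353, 432 and 396, with overexpressor 1 within the range of its controls. In the knockout it read 596, 524 and 487 against 508, 484 and 461. Cox6a2 read 89, 115 and 203 in the overexpressor against 91, 123 and 175, and 450, 440 and 546 in the knockout against 404, 367 and 472. Overexpressor 3 and knockout 3 were its highest arrays. The muscle actin Acta1 was also highest on them (2169 and 3781, against 460 to 1732 and 812 to 2082 on the other arrays of their lines). So were the muscle markers Tnnt3 and Tnnc2. Ckm, Mb and Myh4, the other muscle markers, were highest on other arrays in both lines, and Ckm was lowest of its line on knockout 3. The part of muscle RNA in this was not tested.

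Complex V is the ATP synthase. Atp5pb, of the peripheral stalk, had the largest knockout difference of the 61, 0.39 ± 0.30 (SE; limma, adjusted p = 1.0). It read 927, 1021 and 1068 in the knockout and 785, 1142 and 486 in its controls. The controls ranged widely, with control 2 above every knockout and control 3 below. In the overexpressor line it read 456, 1001 and 950 against 886, 763 and 1065, a difference of -0.23 ± 0.30 (SE), and 0.12 without overexpressor 1.

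Atp5o, which joins the stalk to the catalytic head, had the smallest knockout p-value of the 61 (0.33 ± 0.23, SE; limma, adjusted p = 1.0). It read 1148, 1437 and 1496 in the knockout against 1089, 1384 and 799, so that control 2 lay within the range of the knockouts and control 3 well below it. Its overexpressor arrays read 1092, 1952 and 1733 and their controls 1675, 1447 and 2022 (-0.13 ± 0.23, SE).

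Atp5d, the delta subunit of the head, read 1208, 1649 and 1360 in the overexpressor against 1580, 1459 and 1784 (-0.20 ± 0.15, SE), and 1300, 1502 and 1407 in the knockout against 1403, 1752 and 1243 (-0.05 ± 0.15, SE). Atp5g2, which encodes the c subunit of the rotor ring, read 605, 695 and 750 against 849, 723 and 708 (-0.15 ± 0.14, SE), and 632, 715 and 643 against 674, 778 and 560 (-0.01 ± 0.14, SE). For both, groups overlapped in both lines and the overexpressor difference kept its sign without overexpressor 1, at -0.10 and -0.07.

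The 42 tested genes outside the rule for named genes, Ndufa10 and Uqcr11 among them, lay between -0.24 and 0.08 in the overexpressor and between -0.06 and 0.25 in the knockout. The 9 genes too dim to test were Ndufa1, Ndufa12, Ndufaf1, Ndufaf4, Ndufc2, Ndufs4, Cox6b1, Cox8a and Atp5j2. Cox8a, the common isoform of its subunit, was listed at the floor of 21.9 on all 6 arrays of the overexpressor line, and no difference is given for it.

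Subunit genes varied alike from array to array within a group, and other mitochondrial genes did so in part, as given below. Each gene's log2 value was set against its mean over the 6 arrays of its line and averaged over the 61 genes. Overexpressor arrays 1, 2 and 3 stood at -0.44, 0.20 and 0.07, and their controls at 0.02, -0.02 and 0.17. Overexpressor 1 was thus far below the 5 others, while overexpressor 2 was the highest of the line.

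Knockout arrays 1, 2 and 3 stood at -0.11, 0.06 and 0.25 and their controls at -0.16, 0.21 and -0.25. Control 2 was nearly as high as knockout 3, and the groups overlapped. The same mean over all tested genes was -0.17 for overexpressor 1 and -0.15 for knockout control 3, the lowest of their lines, so a part of the drop on these arrays was common to all genes. Relative to all tested genes the subunits stood at -0.28 on overexpressor 1 and at 0.18 and 0.19 on overexpressor 2 and overexpressor control 3; they stood at -0.19 on knockout control 1, -0.10 on knockout control 3, 0.16 on knockout 3 and 0.17 on knockout control 2.

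**Figure D2:**
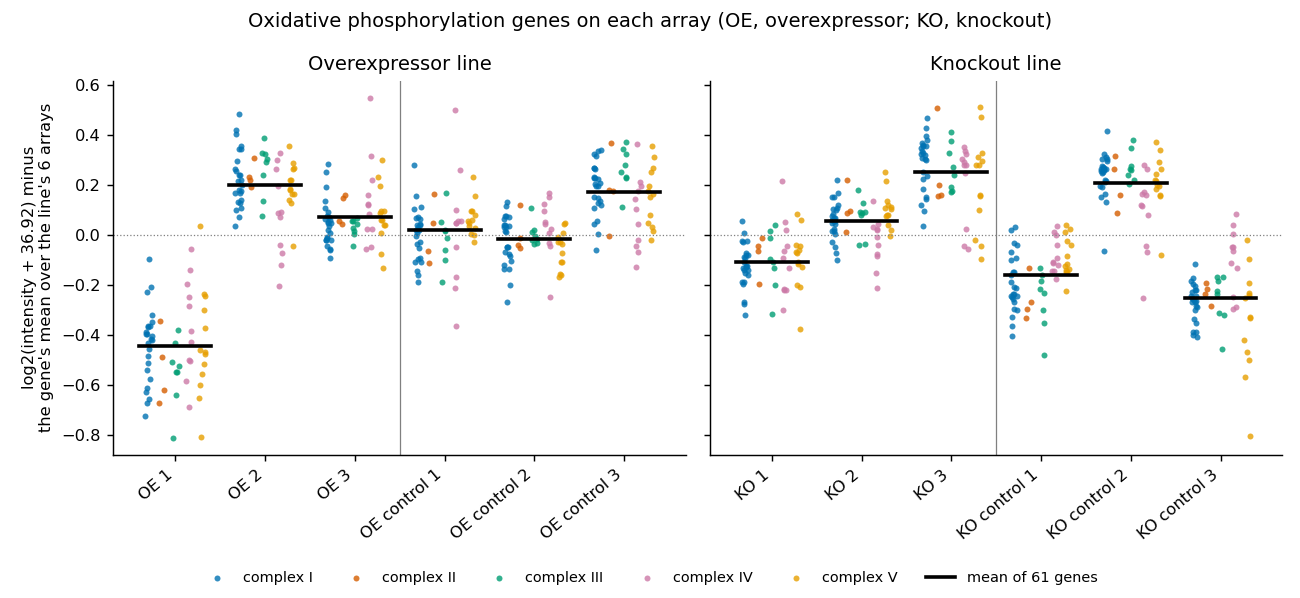
Each point is a subunit gene on an array: its log2(intensity + 36.92) minus its mean over the 6 arrays of its line, coloured by complex, with a bar at the mean of the 61 genes. The mean of the 61 genes is lowest at -0.44 on overexpressor 1 and high at 0.25 and 0.21 on knockout 3 and knockout control 2; complex IV departs on overexpressor 2, where its mean is 0.08.

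The plot of genes by array shows overexpressor 1 with the lowest mean of its line in each of the 5 complexes, from -0.36 in complex IV to -0.55 in complex III. The other arrays were less uniform: overexpressor 2 stood at 0.19 to 0.26 in complexes I, II, III and V but at 0.08 in complex IV, where overexpressor 3 was highest at 0.14, and in complex III overexpressor control 3 stood at 0.27 beside 0.26 for overexpressor 2. Knockout 2 stood at -0.03 in complex IV and at 0.06 to 0.10 in the others. Over all complexes, overexpressor 1 was the lowest of the 6 arrays for 57 of 61 genes (93.4%, against 49.7% of all tested genes); the exceptions were Ndufa10, Cox6b2, Cox8c and Atp5g1. Overexpressor 2 was the highest for 31 of 61 (50.8%, against 12.3%). In the knockout line, knockout 3 was the highest for 52.5% (38.7% of all genes), knockout control 2 for 42.6% (14.4%), and knockout control 3 the lowest for 54.1% (43.7%).

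Arrays of a single group therefore differed more in these genes than the groups did. The median ratio of overexpressor 2 to overexpressor 1 was 1.63 over the 61 genes, from 0.99 for Cox8c to 2.38 for Uqcr11, a small subunit of complex III, against 1.12 over all tested genes. The median SD within a group was 0.27 and 0.25 on the log2 scale for subunit genes in the overexpressor and the knockout line, against 0.17 and 0.18 for all tested genes.

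The overexpressor shift rested on overexpressor 1. Without it, 50 of 61 genes were higher than control and 11 lower, the median became 0.08, and the medians of complexes I to V became 0.07, 0.09, 0.09, 0.10 and 0.08. Leaving out overexpressor 2 gave -0.26, overexpressor 3 gave -0.19 and overexpressor control 3 gave -0.06. Quantile normalization, which sets all arrays to the same distribution, gave a median of -0.02 with 36 of 61 lower, and subtracting array medians gave -0.07 with 44 lower.

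The knockout shift kept its sign whichever array was left out, but its size did not hold. The median was 0.05 without knockout 3, 0.06 without knockout control 3, 0.08 without knockout control 1, 0.24 without knockout 1 and 0.29 without knockout control 2. Between 43 and 59 of 61 genes were higher in these fits. Complex IV was the exception among the complexes, at -0.03 without knockout 3. Quantile normalization gave 0.07 with 48 of 61 higher, and subtracting array medians gave 0.10 with 50 higher.

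**Figure D3:**
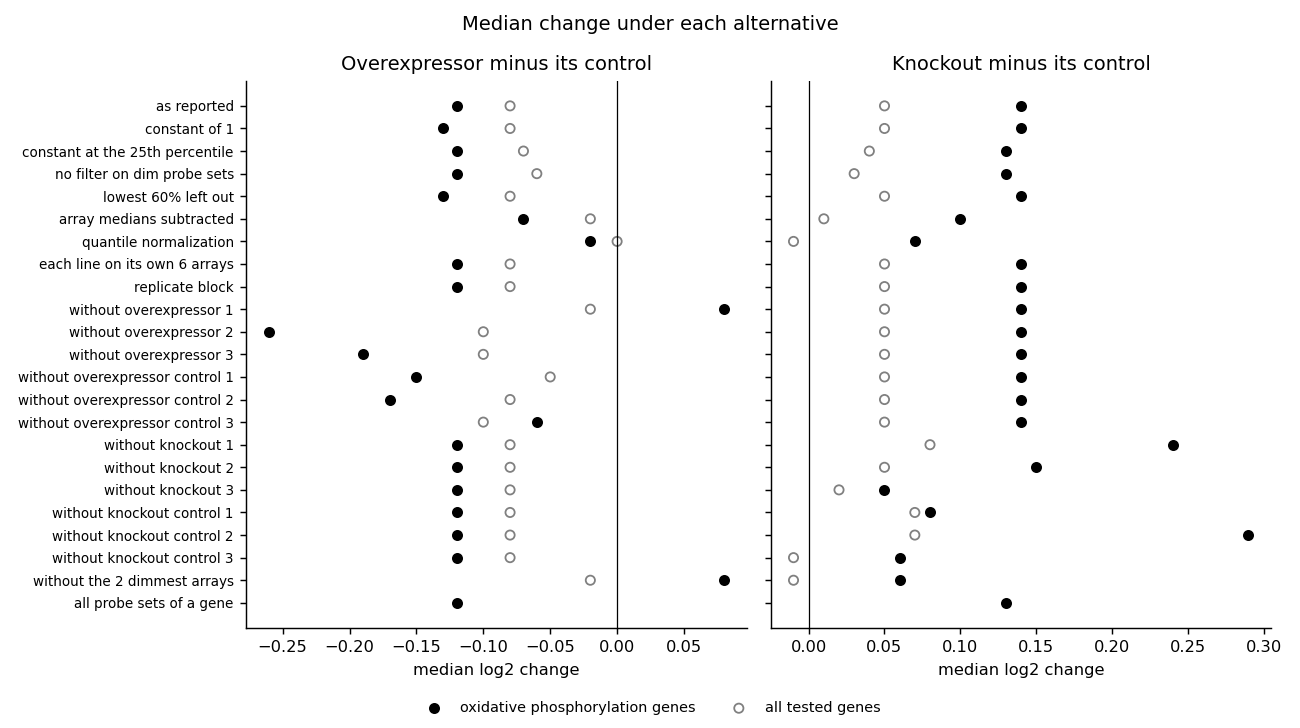
Median log2 difference from control over the tested subunit genes under each alternative setting and with each array left out, for the overexpressor and the knockout (filled circles, subunit genes; open circles, all tested genes). The subunits' overexpressor median runs from -0.26 to 0.08 and crosses 0 only where overexpressor 1 is left out; their knockout median stays between 0.05 and 0.29.

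The plot of alternative settings shows both ranges, and no subunit gene was called in any of these fits.

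The other mitochondrial genes were lower in the overexpressor about as often as all tested genes (71.3%, median -0.08) in several lists, and higher in the knockout more often than all tested genes (64.0%, median 0.05) in each list. Among 16 tested genes of the tricarboxylic acid cycle, which feeds the chain with NADH and succinate, 11 (68.8%) were lower in the overexpressor (median -0.09) and 16 of 16 higher in the knockout (median 0.27). None was called, and neither was any tested gene of the other mitochondrial lists. Lower in the overexpressor were 11 of 14 assembly factors (78.6%, median -0.07), 40 of 49 mitochondrial ribosomal proteins (81.6%, -0.09), 9 of 12 genes of protein import (-0.05) and 14 of 16 (87.5%) of cytochrome c, carriers and coenzyme Q (-0.12). Higher in the knockout were 13 of 14 (0.12), 43 of 49 (0.11), 10 of 12 (0.18) and 14 of 16 (0.13) of the same lists. Overexpressor 1 was the lowest array of its line for 11 of 14, 41 of 49, 12 of 12 and 11 of 16 of their genes, so its drop was not particular to the subunits. Knockout control 3 was the lowest of its line for 10 of 14, 37 of 49, 10 of 12 and 4 of 16. Cycs, cytochrome c itself, differed by 0.17 in the overexpressor and 0.40 in the knockout (limma, adjusted p = 0.935 and 1.0).

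The regulators told little. Of 11 tested, 8 were lower in the overexpressor (median -0.06) and 9 higher in the knockout (0.05). Esrra, a nuclear receptor that drives subunit genes, differed by -0.14 and 0.07 (limma, adjusted p = 0.921 and 1.0). Ppargc1a, at a mean intensity of 28.3, and Tfam, the mitochondrial DNA packaging factor, at 77.5, were too dim to test.

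Markers of brown fat varied in part with the subunits. Of 7 markers all were named and 6 tested; their medians were -0.29 in the overexpressor (5 of 6 lower) and 0.46 in the knockout (5 of 6 higher), with 0 called. Ucp1 read 111, 509 and 367 in the overexpressor against 241, 657 and 1226, and 1452, 711 and 1159 in the knockout against 50.4, 1232 and 808. The lowest array of each line was thus overexpressor 1 and knockout control 1. Cox7a1 was listed at the floor on overexpressor 1. Summed intensity of the list ran from 1102 to 3054 in overexpressors, 1670 to 4577 in their controls, 3688 to 5197 in knockouts and 1396 to 4893 in theirs.

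On overexpressor 1 the brown fat mean was -0.83 beside -0.44 for the subunits, and on knockout control 1 it was -1.22 beside -0.16. On knockout control 3, where the subunits were lowest, it was 0.07, and on knockout 1 it was 0.40 beside -0.11. Tricarboxylic acid cycle genes stayed closer to the subunits than brown fat markers did on these 4 arrays; the cycle genes stood at -0.47 on overexpressor 1, 0.31 on overexpressor 2, 0.32 on knockout 3, -0.31 on knockout control 1 and -0.23 on knockout control 3. Adipocyte markers, 6 tested of 7, had medians of -0.03 in the overexpressor (4 of 6 lower) and 0.17 in the knockout (6 of 6 higher), with 0 called. Their means stood at -0.34, 0.01 and 0.13 in overexpressors against -0.07, 0.12 and 0.16, and at -0.02, 0.17 and 0.15 in knockouts against -0.09, -0.08 and -0.13, so that all knockouts lay above all of their controls. Their summed intensity ran from 18367 to 24778 in overexpressors, 21612 to 24467 in their controls, 23273 to 25754 in knockouts and 21100 to 22901 in theirs. Among these markers Cidec stood apart in the overexpressor at -0.77 (limma, adjusted p = 0.307), with all overexpressor arrays below all controls. Skeletal muscle markers, 7 of 7 tested, include Cox6a2, which is also one of the 61 subunit genes. They summed to 1502 to 4095 in overexpressors, 2263 to 3222 in their controls, 2830 to 7115 in knockouts and 2854 to 4394 in theirs. Mb was at the floor on overexpressor 1 and on 2 of its line's controls. Fibroblast markers had a median of -0.60 in the overexpressor (6 of 6 lower) and -0.14 in the knockout, and macrophage markers -0.30 (6 of 6 lower) and 0.06, with 0 called in either list. At an unadjusted limma p under 0.05, 6 of 6 fibroblast markers were lower in the overexpressor, against 4.76% of all tested probe sets in either direction. The count of macrophage markers at that threshold was 0. Mesothelial and epithelial markers had medians of -0.31 (4 of 4 lower) and -0.13, with 0 called. Endothelial markers, 4 tested of 5, had medians of -0.18 (4 of 4 lower) and 0.01 (2 of 4 higher), with 0 called. Of the 2 tested B cell markers, Ighm, the heavy chain of IgM, was higher in the knockout by 1.40 (limma, adjusted p = 0.016), at 1636, 2356 and 1742 against 842, 602 and 658, while Cd79b differed by -0.11. The part of brown fat, muscle, fibroblasts, macrophages, mesothelium, endothelium, B cells, adipocyte content and array brightness in the subunit differences was not tested.

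**Figure D4:**
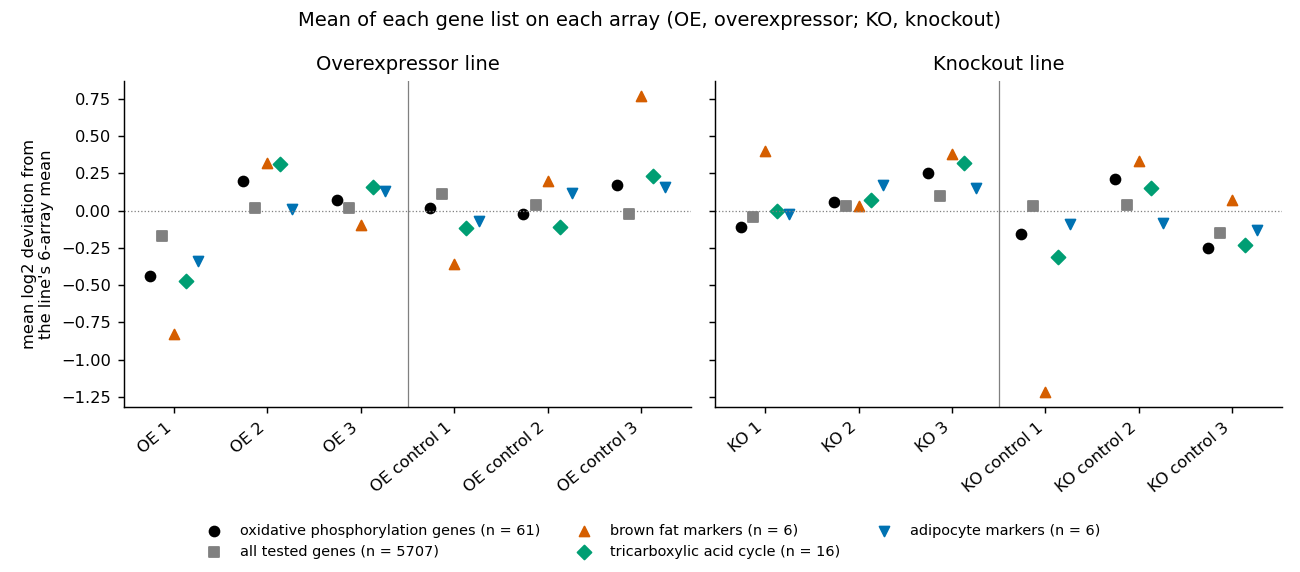
Mean log2 deviation from the line's 6-array mean on each array for the subunit genes, all tested genes, brown fat markers, tricarboxylic acid cycle genes and adipocyte markers, in the overexpressor line (left) and the knockout line (right). In the overexpressor line every list is at its lowest on overexpressor 1, and in the knockout line brown fat markers are lowest on knockout control 1 at -1.22 while subunit genes are lowest on knockout control 3 at -0.25.

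As the plot of list means by array shows, subunits and tricarboxylic acid cycle genes were both lowest on overexpressor 1 and, in the knockout line, both highest on knockout 3. The mean of all tested genes was lowest and highest on the same arrays, at -0.17 and 0.10, so this was not particular to these lists.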

How the data were processed

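The deposited table held 1 intensity on a linear scale for each of 12422 probe sets and 12 arrays. Per the labels, RNA was extracted with an RNeasy kit, biotin-labelled and hybridised to Affymetrix arrays; how the authors summarised and normalized the scans is not given in the sources used here. Groups were taken from sample titles, since the genotype field gives controls the value of their mutants. Gene names came from GEO's platform annotation (10833 probe sets with 1 symbol, 396 with several, 1193 with none), updated by gene ID.

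Intensities were used as log2(intensity + 36.92), the constant being the table's 10th percentile. The 40% of probe sets with the lowest mean were dropped, which kept 7454 for testing. A single limma model (version 3.58.1, R 4.3.3; lmFit, then trended eBayes) took a mean for each group over the 12 arrays, on 8 residual and 4.27 prior degrees of freedom, with Benjamini-Hochberg adjustment at 0.05. The script was tested on simulated data. Exact permutation of 3 against 3 arrays cannot go below p = 0.1.

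Members and gene lists were chosen with earlier results of these data known, so lists are described by counts and medians, without a test. Named subunits were the 2 of each complex with the smallest p in each comparison, and any called or separated in both lines; others were named after their values were seen. P-values measure the spread between arrays within groups of 3, pooled over the 4 groups and moderated by the prior. Each gene therefore has the same SE in both comparisons, even where its spread differs between the lines. Alternatives were another constant (1, or the 25th percentile), another dim filter (none or 60%), array median subtraction, quantile normalization, each line alone, a replicate block, all probe sets of a gene, each array left out and, chosen after seeing the data, the 2 dimmest arrays left out.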

Additional observations from a re-analysis of the deposited data

How the results depend on the processing

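No subunit gene was called under any alternative run, in either comparison or in their difference. The number of subunit genes lower in the overexpressor moved from 53 to 11 without overexpressor 1 and to 11 without the 2 dimmest arrays (overexpressor 1 and knockout control 3, chosen after seeing the data), with a range of 11 to 59 over single arrays left out. The median of complex IV in the overexpressor moved from -0.11 to 0.10 in the same fits, with a range of -0.20 to 0.10. Those of complexes I, II, III and V changed sign there as well, from -0.12, -0.13, -0.16 and -0.13 to 0.07, 0.09, 0.09 and 0.08. The cause was not tested. The 2 dimmest arrays left out gave overall medians of 0.08 and 0.06. A replicate number given as a block left the medians at -0.12 and 0.14 with 0 called. Same-numbered arrays correlated at -0.346 to 0.02 in their deviations, and differently numbered ones at -0.197 to 0.412. With 3 arrays a group these correlations cannot decide whether the numbers pair the mice. Of 10 further tested probe sets of 9 subunit genes, 6 kept the sign of the brightest in both comparisons. The others were of Cyc1 and Atp5d, which differed in sign in the knockout, and of Cox8c and Ndufb10, which differed in the overexpressor. With 3 arrays a group, the 95% interval of a subunit gene reached in the median 0.42 (overexpressor) and 0.43 (knockout) to either side, so smaller differences in a single gene were mostly not detectable.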

Other observations

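Most subunit genes read alike in both lines, with a median ratio of knockout-line to overexpressor-line mean intensity of 1.01 and 56 of 61 genes between 0.67 and 1.5 (83.3% of all tested genes fell in that range). The lines differ in strain and appear to have been processed separately, which cannot be told apart here, so these ratios are descriptions with no test. Ndufa10 stood at 0.19 (188.1 against 1008), Cox6b2 at 0.31, Cox5a at 0.38 (297.4 against 779.1), Ndufa8 at 0.64 and the muscle isoform Cox6a2 at 3.37 (446.5 against 132.5). These 5 genes were named after their values were seen.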
